A study of Mus musculus with 2 samples.

Results

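The long noncoding transcripts Gm48099, A530065N20Rik, 4930556N13Rik, Malat1 and Neat1 were followed across nuclei of mouse brown adipose tissue. They are 5 of the 31053 genes counted in both libraries and were listed because of their levels and library ratios in these data, so those values are given as a description. Nuclei came from C57BL/6 mice, an inbred laboratory strain. The 1cyc library pooled nuclei of 5 mice that had passed through acute cold, transiently, 4 days earlier, and the TN library pooled nuclei of 5 mice housed at thermoneutrality, the temperature at which no extra heat need be produced. The mice carried no listed allele or agent, and the labels used here give neither age nor sex. With 1 pooled library per condition there was no replicate check and no test. Effects of the condition and of the library cannot be told apart. Each pool is 1 sample, so the spread between mice is unknown. Intervals in parentheses are 95% intervals for counting error only.

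Long noncoding RNAs are transcribed and often spliced like messenger RNAs but are not translated, and many stay in the nucleus. Malat1 is a very abundant transcript of nuclear speckles, the bodies that hold splicing factors. Its primary transcript is cut by RNase P just after an A-rich stretch encoded in the genome, which then forms a stabilizing triple helix. Neat1, from the same locus, is the scaffold of paraspeckles, and its long isoform ends in the same manner while its short isoform is polyadenylated. Nuclear profiling reads such retained transcripts along with unspliced messenger RNA.

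The 3′ ends of the annotated transcripts are shown because oligo-dT libraries count polyadenylated or A-rich ends, and the labels give polyA RNA as the molecule. The sequences are 80-base windows of GENCODE M21 transcripts on mm10, written 5′ to 3′, with AATAAA, the usual polyadenylation signal, and runs of at least 5 A in capitals. Each window is the last 80 bases of its transcript, except for Malat1-201, where bases 6606 to 6685 of 6983 are shown so that the window closes with the longest A run.
Gm48099-201 (chr14:19282743-19282822, + strand): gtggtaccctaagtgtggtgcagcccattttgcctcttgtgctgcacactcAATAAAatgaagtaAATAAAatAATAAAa
A530065N20Rik-201 (chr13:60116590-60116669, + strand): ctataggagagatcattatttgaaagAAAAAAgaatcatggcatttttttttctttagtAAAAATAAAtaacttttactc
A530065N20Rik-202 (chr13:60111151-60111230, + strand): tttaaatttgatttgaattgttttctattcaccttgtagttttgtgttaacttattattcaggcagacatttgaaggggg
4930556N13Rik-201 (chr11:88881316-88881395, + strand): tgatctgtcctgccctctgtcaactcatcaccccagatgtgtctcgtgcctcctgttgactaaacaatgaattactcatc
Malat1-201 (chr19:5795988-5796067, - strand): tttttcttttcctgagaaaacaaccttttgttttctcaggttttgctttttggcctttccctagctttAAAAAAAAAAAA
Neat1-202 (chr19:5842307-5842386, - strand): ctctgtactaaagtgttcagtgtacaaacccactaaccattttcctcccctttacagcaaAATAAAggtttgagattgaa
Neat1-201 (chr19:5824708-5824787, - strand): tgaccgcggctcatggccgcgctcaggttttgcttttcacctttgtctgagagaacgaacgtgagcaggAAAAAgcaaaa
The Gm48099 window held 3 AATAAA, counted on the transcript strand with overlaps. A530065N20Rik-201 and Neat1-202, the short Neat1 isoform, held 1 each, and the windows of 4930556N13Rik-201, A530065N20Rik-202, Malat1-201 and Neat1-201 held none. Over 15642 long noncoding transcripts of the annotation, 32.1% had AATAAA in their last 80 bases. The longest A run of Malat1-201 was 12 bases, at positions 6674 to 6685, and 4.29% of 15652 long noncoding transcripts held a run of that length or more.

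All 5 genes lie at annotated noncoding loci of mm10. Gm48099 (ENSMUSG00000114304) is a lincRNA with 3 exons at chr14:19271274-19282822 on the + strand, between pseudogenes that were not among the counted genes. The nearest counted gene with UMIs, Ube2e2, a ubiquitin-conjugating enzyme gene, is 377007 bases away. A530065N20Rik (ENSMUSG00000114531) is a lincRNA at chr13:60029711-60116669 on the + strand, with 57736 bases to Gas1, a growth arrest gene. 4930556N13Rik (ENSMUSG00000092399) has 5 exons at chr11:88851604-88881395 on the + strand and is annotated as antisense, and it overlaps the opposite-strand gene Akap1. Malat1 (ENSMUSG00000092341, chr19:5795690-5802672) and Neat1 (ENSMUSG00000092274, chr19:5824708-5845478) are lincRNAs on the - strand, 22036 bases apart. Frmd8os, 145 bases from Neat1, was sparse, with 13 UMIs in 1cyc and 5 in TN adipocyte nuclei. Of the distinct 31-base stretches of each gene's transcripts, 6.81% of Malat1's, 2.20% of Neat1's, 1.75% of Gm48099's, 0.806% of A530065N20Rik's and 0.697% of 4930556N13Rik's also occurred in transcripts of other genes. Matches on either strand counted, and so did genes annotated within a member's own locus, such as Gm37376 and Gm27694 at Malat1. These shares are therefore not a measure of likeness to other loci alone.

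Adipocyte nuclei were barcodes with at least 4 UMIs, or unique molecules, summed over Pparg, Acsl1, Pde3b and Ppara and with under 5% of UMIs from mitochondrially encoded (mt-) genes. This held for 912 of 4321 barcodes in 1cyc and 1081 of 2551 in TN. The rule cut through a continuous range: 49 nuclei of 1cyc and 45 of TN lay at exactly 4 UMIs, and 53 and 61 barcodes under 5% mt- lay just outside at 3. The 1cyc library was deposited down to 262 UMIs per barcode and had a median mt- share of 22.1%, against 500 UMIs and 4.76% in TN. The libraries held 2469900 UMIs in 1cyc and 2745808 in TN, and 6 barcode sequences occurred in both, of which 1 was an adipocyte nucleus in 1cyc and 4 were in TN. Within the adipocyte nuclei the median depth was 966.5 UMIs in 1cyc and 873 in TN. All 8 other adipocyte markers checked had UMIs there, and summed to 6662 CPM in 1cyc and 7195 CPM in TN. All 8 also had UMIs in the pooled nuclei of other classes, described below, at 1460 CPM in 1cyc and 1644 CPM in TN. CPM are UMIs per 1000000 UMIs of the summed nuclei. Plin1, which coats lipid droplets, had 622 CPM in 1cyc and 430 CPM in TN, and Ucp1, the uncoupling protein of brown fat, had 270 CPM in 1cyc and 126 CPM in TN. Cidec, another lipid droplet protein, had 618 CPM in 1cyc and 624 CPM in TN. The growth hormone receptor gene Ghr, the largest part of the sum in each library, had 2477 CPM in 1cyc and 4011 CPM in TN.

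A few adipocyte nuclei were rich in haemoglobin RNA. At least 10% of UMIs were from haemoglobin genes and the erythroid gene Alas2 in 2 nuclei of 1cyc (2770 UMIs) and in 6 nuclei of TN (46202 UMIs). They kept their place under the rule, but the genes of that list made up 3.66% of all adipocyte UMIs in TN, against 0.273% in 1cyc. Values without these nuclei, a setting chosen after seeing the data, are given beside the Malat1 results whose direction they changed. At least 3 UMIs of another class's marker list were present in 32 adipocyte nuclei of 1cyc and 75 of TN. Summed over their lists, markers of other classes stood in adipocyte nuclei at 197 CPM in 1cyc and 405 CPM in TN for fibroblasts or progenitors (11 of 11 markers detected), 121 and 386 CPM for endothelium (9 and 8 of 9, Vwf at 0 in TN) and 94.0 and 191 CPM for mural cells (9 of 9). They stood at 411 CPM in 1cyc and 107 CPM in TN for skeletal muscle (8 of 8), at 40.4 and 89.7 CPM for immune cells (8 and 10 of 10, Cd163 and Cd74 at 0 in 1cyc) and at 55.6 and 45.3 CPM for Schwann cells (3 of 5, Sox10 at 0 in both). The part of other cells' RNA in the member values was not tested.

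Gm48099, Neat1, 4930556N13Rik and A530065N20Rik were higher in 1cyc than in TN adipocyte nuclei, and Malat1 was slightly lower. Long noncoding genes of the annotation took 18.1% of adipocyte UMIs in 1cyc and 18.9% in TN. The 5 members made up 69.9% of these long noncoding UMIs in 1cyc and 68.7% in TN, nearly all of it Malat1.

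Gm48099 had 3223 UMIs in 1cyc and 1747 in TN adipocyte nuclei, or 3256 CPM (3145 to 3370) against 1464 CPM (1396 to 1535). The ratio of 1cyc to TN was 2.22 (2.10 to 2.36). A UMI was present in 90.7% (88.6 to 92.5) of 1cyc nuclei and 73.7% (71.0 to 76.3) of TN nuclei. Blood barcodes, which are rich in haemoglobin RNA and serve as the background, held a Gm48099 UMI in 86.7% in 1cyc and 64.1% in TN, at median depths of 2914 UMIs in 1cyc and 6183 UMIs in TN, so presence of a UMI alone is not read as expression. The share of UMIs per nucleus ran from 0 through a median of 0.293% to 3.56% in 1cyc, and from 0 through 0.134% to 1.34% in TN. The 10% of nuclei with most Gm48099 UMIs held 28.0% of them in 1cyc and 32.1% in TN.

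Neat1 had 2268 UMIs in 1cyc and 1565 in TN, or 2291 CPM (2198 to 2388) against 1312 CPM (1248 to 1378), a ratio of 1.75 (1.64 to 1.86). It was found in 84.3% (81.8 to 86.6) of 1cyc nuclei and 66.2% (63.3 to 69.1) of TN nuclei. The median share per nucleus was 0.205% in 1cyc and 0.116% in TN, with highest values of 2.26% in 1cyc and 0.814% in TN. The counts do not tell the short from the long isoform.

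4930556N13Rik was the sparsest member, with 250 UMIs in 1cyc and 169 in TN, or 253 CPM (222 to 286) against 142 CPM (121 to 165). The ratio was 1.78 (1.46 to 2.18). It was detected in 21.3% (18.7 to 24.1) of 1cyc nuclei and 14.4% (12.4 to 16.7) of TN nuclei, and no nucleus held more than 4 UMIs in 1cyc or 2 in TN. Akap1, which anchors protein kinase A at the mitochondrial outer membrane and overlaps this gene on the opposite strand, had 809 UMIs in 1cyc and 627 in TN, 817 against 526 CPM and a ratio of 1.56 (1.40 to 1.73). The 2 genes were counted separately. Whether the counting used strand is not given in the sources used here. Whether reads of one gene entered the count of the other was not tested.

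A530065N20Rik had 1285 UMIs in 1cyc and 1159 in TN, or 1298 CPM (1228 to 1371) against 971 CPM (916 to 1029), a ratio of 1.34 (1.23 to 1.45). A UMI was present in 66.2% (63.1 to 69.3) of 1cyc nuclei and 56.5% (53.5 to 59.5) of TN nuclei. The overlapping opposite-strand gene Gm48396 had 8 UMIs in 1cyc and 2 in TN, and Gas1 had 21 in each library.

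Malat1 was found in every adipocyte nucleus of both libraries. It had 117901 UMIs in 1cyc and 150003 in TN, or 119110 CPM in 1cyc and 125728 CPM in TN, a ratio of 0.947 (0.940 to 0.955). Per nucleus it took between 0.574% and 33.1% of UMIs in 1cyc, with a median of 10.2%, and between 0.0801% and 27.1% in TN, with a median of 12.4%. The lowest nuclei were haemoglobin-rich: without those, the lowest share was 2.49% in 1cyc and 0.672% in TN, and the ratio was 0.914 (0.907 to 0.921).

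Because detection depends on depth, each nucleus was also thinned to 500 UMIs, leaving out 125 shallower nuclei of 1cyc and none of TN. Gm48099 was then detected in 72.4% of 1cyc and 51.4% of TN nuclei, and Neat1 in 63.2% of 1cyc and 47.1% of TN nuclei. The shares of A530065N20Rik were 46.9% in 1cyc and 39.4% in TN. Those of 4930556N13Rik were 11.1% (8.95 to 13.5) in 1cyc and 8.05% (6.50 to 9.83) in TN, whose intervals overlapped. In blood barcodes thinned alike, Gm48099 was detected in 33.3% in 1cyc and 25.6% in TN, A530065N20Rik in 6.67% and 5.13%, Neat1 in 0 and 2.56%, and 4930556N13Rik in none of either library. The thinned shares of adipocyte nuclei were above the blood shares for these members. However, haemoglobin-list genes took 957277 CPM of blood barcodes in 1cyc and 941275 CPM in TN. Thinning leaves few UMIs of other genes there, so low blood shares were given by construction and nothing is read from this order.

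The members were placed among the 3643 genes that reached 100 UMIs in the adipocyte nuclei of both libraries together. Of all these genes, 1.54% stood 2-fold or more above TN in 1cyc and 2.14% stood 2-fold or more below, or 56 and 78 genes, against 32 and 90 under TMM scaling. One member, Gm48099, was past 2-fold; since the members were chosen with this contrast known, nothing is read from that count. Its ratio stood behind 24 of the 3643 genes and ahead of the other 70 long noncoding genes. 4930556N13Rik had 120 genes above it, Neat1 137, A530065N20Rik 603 and Malat1 2536.

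**Figure D1:**
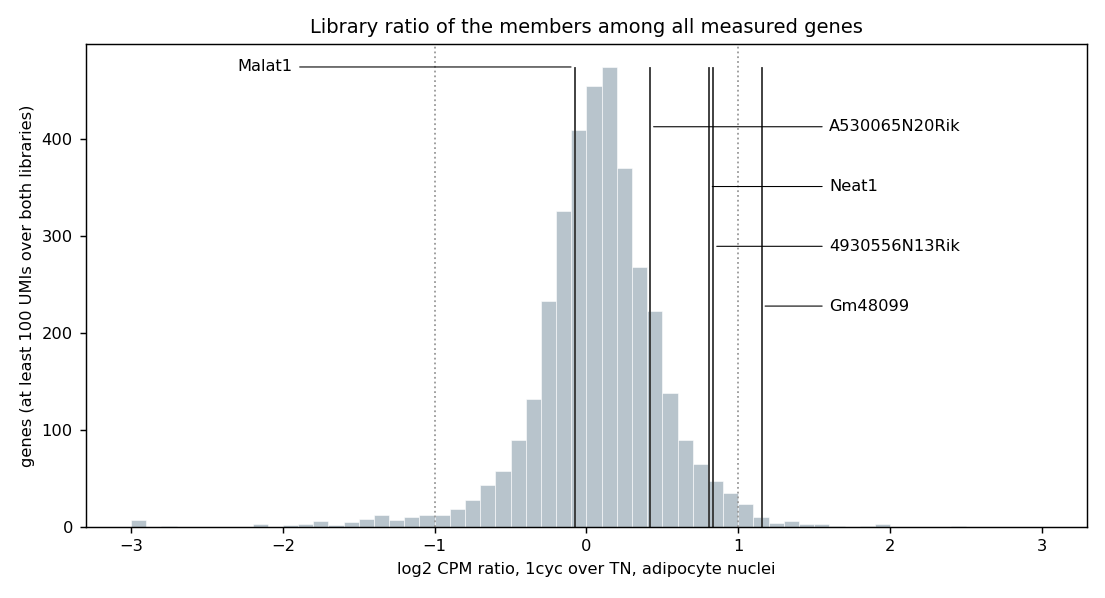
Histogram of the log2 CPM ratio of 1cyc over TN in adipocyte nuclei for 3643 genes, with the members as vertical lines and dotted lines at 2-fold; the end bins also hold genes beyond the axis. Gm48099 lies at 1.15, 4930556N13Rik at 0.83, Neat1 at 0.80, A530065N20Rik at 0.42 and Malat1 at -0.08, while the median gene is at 0.09.

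The other long noncoding genes also leaned to higher values in 1cyc. Without the members, 54 of 66 measured long noncoding genes were higher and 12 lower (81.8% higher), with a median log2 ratio of 0.26, while 60.9% of all measured genes were higher and their median was 0.09. Scaled with TMM factors, which moved the values of all genes by 0.10 on the log2 scale, 46 of the 66 were higher (69.7%), against 48.4% of all genes. Of the long noncoding genes, 4.23% (3 of 71) stood 2-fold or more above TN in 1cyc and 1.41% (1 of 71) 2-fold or more below. Divided by the TMM factor of 1.07, Gm48099, chosen for this contrast, is the only one of the 3 that stays past 2-fold. After Gm48099 the highest were AC163018.1, at 431 CPM in 1cyc and 205 CPM in TN with a ratio of 2.10 (1.79 to 2.47), and Gm29682, with 70 UMIs in 1cyc and 41 in TN. Gm4876 was the lowest, with 24 UMIs in 1cyc and 96 in TN and a ratio of 0.301 (0.184 to 0.475). Among gene models with Gm or Rik symbols, 4.72% (5 of 106) lay 2-fold or more above TN and 0.943% 2-fold or more below. The highest that is not a member was Gm29669 at 2.87 (2.26 to 3.66), with 238 UMIs in 1cyc and 100 in TN, followed by Gm14326 with 77 UMIs in 1cyc and 42 in TN.

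Of 28 other well-known long noncoding genes listed, 17 were in the gene table and 4 reached 100 UMIs. Snhg11, a small nucleolar RNA host gene, had a ratio of 1.87 (1.54 to 2.28), with 267 UMIs in 1cyc and 172 in TN. Meg3, a maternally expressed imprinted gene, had 65 UMIs in 1cyc and 119 in TN, a ratio of 0.658 (0.479 to 0.898). Kcnq1ot1 and Airn, imprinted antisense transcripts expressed from the paternal allele, stood at 1.09 (0.950 to 1.25) and 0.993 (0.916 to 1.08). The median log2 ratio of the 4 was 0.06, and none was past 2-fold, where 1.54% of all measured genes stood above TN and 2.14% below.

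Genes for proteins of the bodies in which Malat1 and Neat1 reside were looked at beside them. Of 8 speckle proteins, 7 were measured and all 7 were higher in 1cyc, with a median log2 ratio of 0.24. Of all 3643 measured genes, 60.9% were higher, with a median of 0.09. Under TMM or median-ratio scaling 6 of the speckle genes were higher and Srsf5 was lower. Of all measured genes, 48.4% were higher under TMM, and under median-ratio scaling 1821 were higher and 1821 lower. The difference between the speckle genes and all genes was not tested. Srrm2, a scaffold of speckles, had 1371 CPM in 1cyc and 911 CPM in TN (ratio 1.50, 1.39 to 1.63), and Srrm1 and Srsf11 had ratios of 1.39 (1.14 to 1.69) and 1.37 (1.20 to 1.55). Of 9 paraspeckle proteins 7 were measured, 3 higher and 4 lower, with a median log2 ratio of -0.0011. Dazap1 stood at 1.33 (1.03 to 1.73), and Pspc1, which builds paraspeckles with Neat1, at 0.817 (0.645 to 1.03). No gene of either list was past 2-fold, where 1.54% of all measured genes stood above TN and 2.14% below. The noncoding genes that overlap ribosomal RNA differed among themselves: Gm42418 stood at 0.756 (0.745 to 0.768), Gm26917 at 1.16 (1.09 to 1.24) and AY036118 at 1.31 (0.898 to 1.92).

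The members parted into 3 patterns across cell classes. Barcodes under 5% mt- that failed the adipocyte rule were classed by at least 3 UMIs of 1 marker list, and more than of any other list. This gave 51 fibroblast or progenitor nuclei in 1cyc and 85 in TN, and 90 and 169 nuclei over the 6 non-adipocyte classes together (fibroblast or progenitor, endothelial, mural, skeletal muscle, immune and Schwann). The pooling of these 6, and the values of classes with under 20 nuclei in a library, were added after their small numbers were seen. Barcodes with at least 10% haemoglobin-list UMIs, called blood, numbered 15 in 1cyc and 39 in TN and served as the background, since mature red cells of mice have no nucleus. Haemoglobin-list UMIs made up nearly all of their UMIs, so their CPM and thinned shares of other genes are low by construction. A further 67 barcodes in 1cyc and 51 in TN reached 3 UMIs of no list, or were tied between lists, and stayed unclassified.

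A530065N20Rik and 4930556N13Rik were far lower in the other named classes than in adipocyte nuclei. A530065N20Rik had 12 UMIs in the 90 other nuclei of 1cyc and 18 in the 169 of TN, so that its CPM was 10.4 times (5.92 to 20.1) higher in adipocyte nuclei in 1cyc and 12.8 times (8.04 to 21.6) higher in TN. 4930556N13Rik had 1 UMI in the other nuclei of 1cyc and none in those of TN. In TN the ratio of adipocyte over other nuclei had a lower bound of 8.99 and no upper bound. Set against a floor of 3 counts over the group, it was 11.2. In 1cyc the ratio was 24.2 (4.31 to 960). For 0 of 169 TN nuclei with a UMI the exact interval reaches 2.16%. Akap1 too was low in the other nuclei, with 7 UMIs in 1cyc and 10 in TN. After thinning, A530065N20Rik was detected in 9.09% of other nuclei of 1cyc and 2.96% of those of TN, beside 6.67% and 5.13% of blood barcodes. Before thinning the shares were 11.1% of other nuclei in 1cyc and 8.88% in TN, beside 6.67% and 10.3% of blood barcodes, at median depths of 1003 UMIs in 1cyc and 1240 UMIs in TN other nuclei and of 2914 and 6183 UMIs in blood. Blood shares are low by construction, so neither expression nor its absence in other nuclei is read from this comparison. Unclassified barcodes had 1107 CPM of A530065N20Rik in 1cyc and 522 CPM in TN, on 33 and 18 UMIs, and 4 and 3 UMIs of 4930556N13Rik.

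The promoters of this pair are shown for that reason. They are 300-base windows, 250 bases before and 50 after the start, from RefSeq on GRCm38.p6, with AGGTCA, the core element bound by nuclear receptors, in capitals.
A530065N20Rik promoter (chr13:60029461-60029760, + strand): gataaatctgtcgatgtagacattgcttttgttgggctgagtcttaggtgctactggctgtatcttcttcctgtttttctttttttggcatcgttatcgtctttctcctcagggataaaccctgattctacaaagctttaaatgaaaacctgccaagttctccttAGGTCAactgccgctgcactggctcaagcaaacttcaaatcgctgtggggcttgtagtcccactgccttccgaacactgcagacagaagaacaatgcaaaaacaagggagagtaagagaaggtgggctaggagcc
4930556N13Rik promoter (chr11:88851354-88851653, + strand): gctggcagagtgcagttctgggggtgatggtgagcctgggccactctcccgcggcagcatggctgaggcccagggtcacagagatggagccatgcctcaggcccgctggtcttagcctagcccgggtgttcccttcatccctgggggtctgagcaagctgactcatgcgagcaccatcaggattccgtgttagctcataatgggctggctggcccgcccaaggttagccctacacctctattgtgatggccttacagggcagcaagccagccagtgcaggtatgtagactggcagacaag
The A530065N20Rik window held 1 AGGTCA on the written strand, and the 4930556N13Rik window held none. On either strand AGGTCA occurs in 16.3% of 32851 promoters of this length, and the tandem form AGGTCANAGGTCA (N is any base), absent from both windows, in 0.0396%. Neither window held TGACGTCA, the cyclic AMP response element, found in 1.79% of promoters, its shorter form TGACG, found in 20.8%, or TATAAA, found in 13.6%. The matches describe letters and do not show binding.

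Neat1 CPM was higher in adipocyte nuclei than in the other classes pooled, but not than in skeletal muscle nuclei or unclassified barcodes. Its CPM in adipocyte nuclei was 2.56 times (2.06 to 3.21) that of the 6 other classes in 1cyc and 1.98 times (1.68 to 2.34) in TN. Fibroblast or progenitor nuclei had 789 CPM (578 to 1053) in 1cyc and 587 CPM (455 to 746) in TN. The few skeletal muscle nuclei, 7 in 1cyc and 28 in TN, had 2579 CPM (1685 to 3779) in 1cyc and 1788 CPM (1364 to 2301) in TN, above the 2291 and 1312 CPM of adipocyte nuclei but with intervals that overlap theirs. Unclassified barcodes had 3791 CPM (3125 to 4558) in 1cyc and 1565 CPM (1176 to 2042) in TN. Their median depth was 368 UMIs in 1cyc and 621 UMIs in TN, against 966.5 and 873 UMIs in adipocyte nuclei. Per barcode they averaged 1.69 Neat1 UMIs in 1cyc and 1.06 in TN, below the 2.49 and 1.45 of adipocyte nuclei. The part of depth was not tested. Blood barcodes held 0 UMIs in 1cyc and 6 in TN. After thinning, 35.1% of other nuclei in 1cyc and 23.7% in TN had a Neat1 UMI (47.8% and 49.1% before thinning). The thinned shares of blood barcodes were 0 and 2.56%. They are low by construction, and nothing is read from the contrast. The 1cyc to TN ratio in the other classes was 1.35 (1.03 to 1.77).

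Malat1 and Gm48099 were found in every class that held nuclei. Malat1 stood at 173188 CPM in 1cyc and 176367 CPM in TN fibroblast or progenitor nuclei, so the adipocyte nuclei had 0.688 times (0.674 to 0.702) that level in 1cyc and 0.713 times (0.702 to 0.723) in TN. In blood barcodes it was 2812 CPM in 1cyc and 3689 CPM in TN. The ratio of 1cyc to TN was 0.982 (0.959 to 1.01) in fibroblast or progenitor nuclei. In the smaller classes it ranged from 0.542 (0.502 to 0.584) in mural to 1.40 (1.28 to 1.52) in immune nuclei, so no single direction held across classes.

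Gm48099 was not set apart in adipocyte nuclei, and its level differed between the other classes. Relative to the 6 other classes its CPM in adipocyte nuclei was 0.877 times (0.786 to 0.981) in 1cyc and 1.06 times (0.941 to 1.20) in TN. In 1cyc, endothelial nuclei had 7953 CPM (6419 to 9743) and unclassified barcodes 8220 CPM (7223 to 9317), against 3256 CPM in adipocyte nuclei. Their median depths were 628 UMIs (endothelial), 368 UMIs (unclassified) and 966.5 UMIs (adipocyte), and the part of depth was not tested. In TN, mural nuclei had 2192 CPM (1660 to 2840) and skeletal muscle nuclei 834 CPM (554 to 1206), against 1464 CPM in adipocyte nuclei. The library ratio of Gm48099 was above 1 in each class with nuclei in both libraries. It was 2.27 (1.81 to 2.86) in fibroblast or progenitor nuclei, 3.80 (2.75 to 5.28) in endothelial nuclei (15 in 1cyc, 22 in TN) and 4.76, with a lower bound of 2.86, in skeletal muscle nuclei. In immune nuclei (8 in 1cyc, 14 in TN) it was 3.29 (1.86 to 5.83), and in mural nuclei (9 in 1cyc, 18 in TN) 1.83 (1.14 to 2.88). In blood barcodes, with 26 UMIs in 1cyc and 53 in TN, it was 1.81 (1.08 to 2.94). Over all blood UMIs Gm48099 had 423 CPM in 1cyc and 234 CPM in TN. Haemoglobin-list genes took 58885 of 61513 blood UMIs in 1cyc and 213306 of 226614 in TN. The low blood CPM of Gm48099 therefore does not set nuclei apart from background. The part of background RNA in its values was not tested. Per barcode, Gm48099 averaged 3.53 UMIs in 1cyc and 1.62 UMIs in TN adipocyte nuclei, 3.25 and 1.68 UMIs in fibroblast or progenitor nuclei and 3.44 and 3.17 UMIs in mural nuclei. It averaged 6.20 UMIs in 1cyc and 3.05 UMIs in TN endothelial nuclei. Unclassified barcodes averaged 3.66 and 1.67 UMIs, and blood barcodes 1.73 and 1.36 UMIs. 

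**Figure D2:**
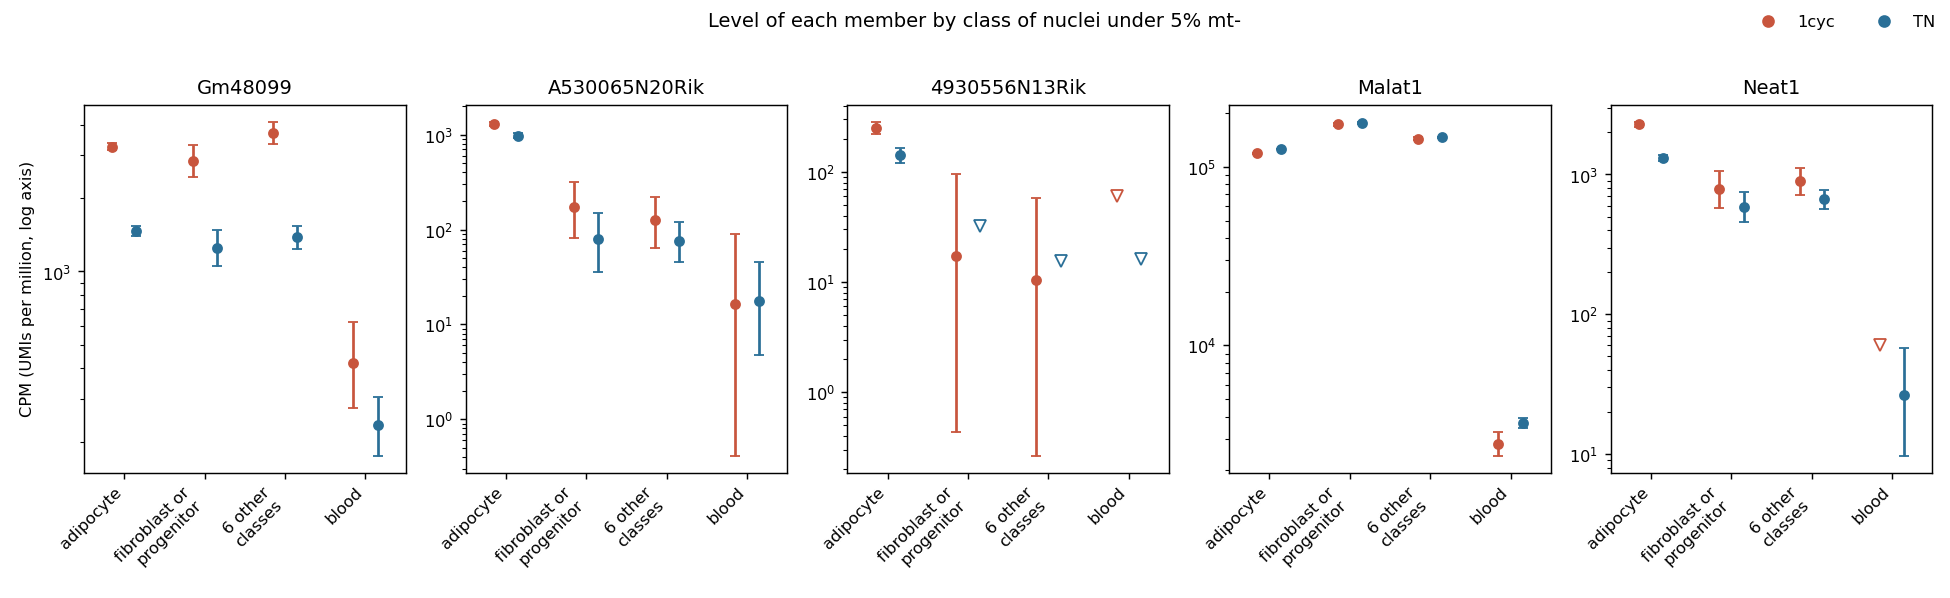
CPM (log axis) of each member in adipocyte nuclei, fibroblast or progenitor nuclei, the 6 other classes pooled (fibroblast or progenitor included) and blood barcodes, 1cyc left of TN, with 95% Poisson intervals; open triangles are upper limits at 0 UMIs. A530065N20Rik is at 1298 CPM in 1cyc and 971 CPM in TN adipocyte nuclei and at 172 CPM or below in the other classes drawn, whereas Gm48099 lies between 2849 and 3712 CPM in 1cyc and between 1254 and 1464 CPM in TN over the nuclear classes drawn.

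Within adipocyte nuclei the members differed in how they followed the depth of the nucleus. Malat1 UMIs were higher in deeper nuclei (Spearman rho across nuclei 0.914 in 1cyc, n = 912, and 0.836 in TN, n = 1081). Gm48099 UMIs were nearly unrelated to depth (0.0498 in 1cyc and 0.0693 in TN). Neat1 (0.255 in 1cyc, 0.313 in TN), A530065N20Rik (0.219 in 1cyc, 0.119 in TN) and 4930556N13Rik (0.232 in 1cyc, 0.0829 in TN) lay between, and sparse counts alone weaken such values. These correlations share the library and its depth and are given as descriptions.

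The nuclei of both libraries were split at 743 and 1154 UMIs. From the lowest to the highest depth, Gm48099 had 6387, 3591 and 2206 CPM in 1cyc and 2441, 1597 and 1025 CPM in TN, so its level per UMI was lowest in the deepest nuclei of each library. The library ratio was 2.62 (2.36 to 2.91), 2.25 (2.02 to 2.50) and 2.15 (1.95 to 2.37). Neat1 had 3612, 2292 and 1905 CPM in 1cyc, with little trend in TN (1464, 1220 and 1314 CPM), and its ratio was 2.47 (2.15 to 2.83), 1.88 (1.65 to 2.13) and 1.45 (1.32 to 1.59). Malat1 went the other way in 1cyc, with 78145, 108942 and 135161 CPM, and had 113551, 129193 and 127981 CPM in TN. Its ratio was 0.688 (0.674 to 0.703) in the shallowest nuclei, 0.843 (0.831 to 0.856) in the middle and 1.06 (1.05 to 1.07) in the deepest. Without the haemoglobin-rich nuclei, 1 of 1cyc and 6 of TN in the deepest group, that last ratio was 0.981 (0.971 to 0.990), with 135587 CPM in 1cyc and 138265 CPM in TN. The direction above 1 among the deepest nuclei thus rested on 7 nuclei.

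**Figure D3:**
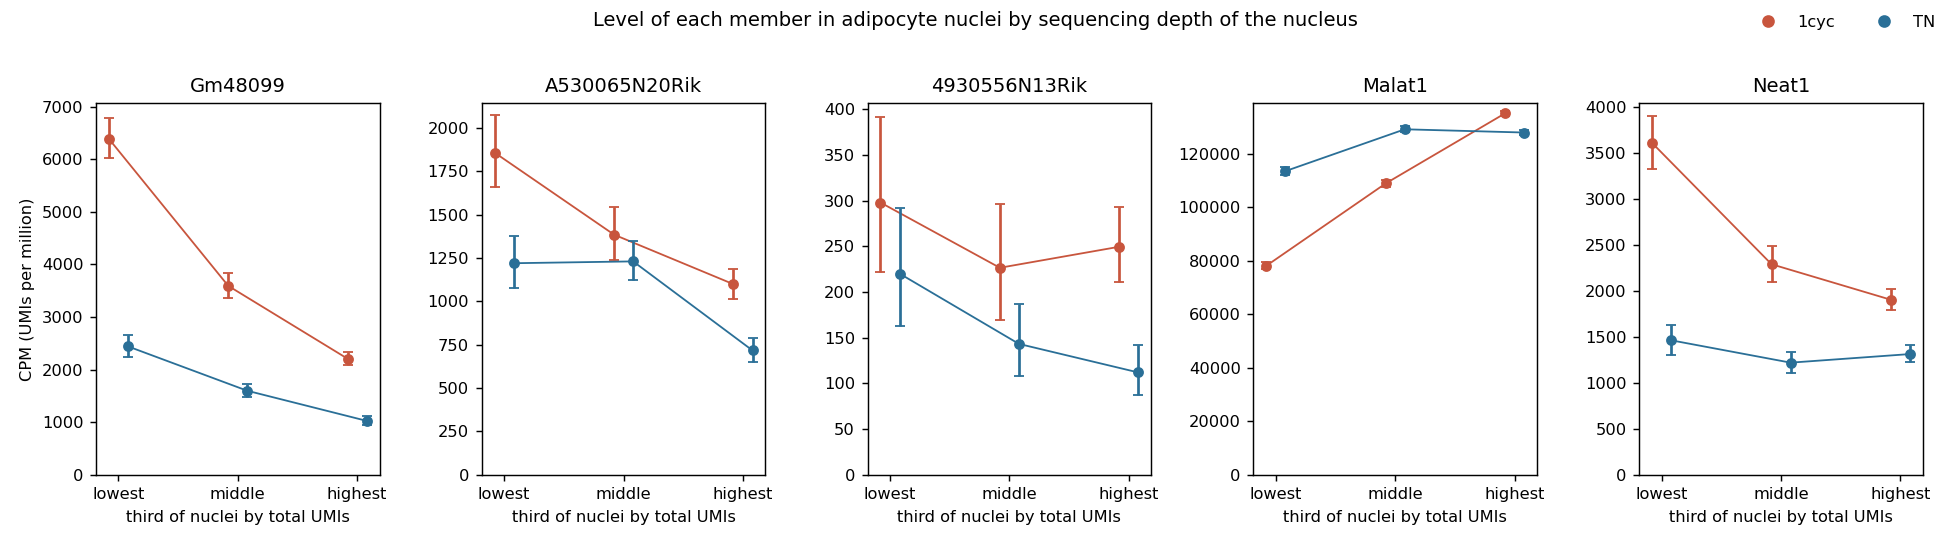
CPM of each member in adipocyte nuclei grouped by total UMIs of the nucleus (up to 743, to 1154, and above), 1cyc and TN, with 95% Poisson intervals; haemoglobin-rich nuclei are included. Gm48099 is lowest in the deepest nuclei of both libraries, at 2206 CPM in 1cyc and 1025 CPM in TN, while Malat1 in 1cyc is highest there, at 135161 CPM.

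Marker subsets of the adipocyte nuclei separated A530065N20Rik and Neat1. Nuclei with at least 2 UMIs of Nnat or Slc7a10, genes known from white adipocytes, numbered 27 in 1cyc and 99 in TN. There A530065N20Rik had 209 CPM (95.5 to 396) in 1cyc and 358 CPM in TN, against 1348 CPM in 1cyc and 1066 CPM in TN in the remaining nuclei. Its library ratio was 0.584 (0.254 to 1.19) there, on 9 UMIs in 1cyc and 57 in TN, and 1.26 (1.17 to 1.37) in the rest. Neat1 had 2808 CPM (2330 to 3355) in 1cyc and 2102 CPM in TN there, against 2268 CPM in 1cyc and 1190 CPM in TN in the rest. Gm48099 had 1717 CPM in 1cyc and 772 CPM in TN there, against 3326 CPM in 1cyc and 1571 CPM in TN in the rest. 4930556N13Rik, on 5 UMIs in 1cyc and 12 in TN, had 116 CPM (37.7 to 271) and 75.3 CPM (38.9 to 131) there. In the rest it had 259 CPM in 1cyc and 152 CPM in TN. The median depth of the Nnat or Slc7a10 nuclei was 1335 UMIs in 1cyc and 1450 UMIs in TN, against 948 and 850 UMIs in the rest, and the part of depth in these differences was not tested.

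Ucp1 and fatty acid synthesis genes gave other splits. Nuclei with a Ucp1 UMI numbered 177 in 1cyc and 108 in TN. The Gm48099 ratio was 1.46 (1.24 to 1.72) there and 2.40 (2.25 to 2.56) in the other nuclei, with 2666 CPM in 1cyc and 1831 CPM in TN where Ucp1 was detected. The Neat1 ratio was 1.50 (1.25 to 1.81) with Ucp1 and 1.80 (1.68 to 1.93) without. Nuclei with a Ucp1 UMI had a median depth of 1129 UMIs in 1cyc and 870 UMIs in TN, against 895 and 873 UMIs without, and the part of depth was not tested. Where the fatty acid synthesis genes (Acly, Acaca, Fasn and 5 more) reached 2 UMIs per 500, in 607 nuclei of 1cyc and 457 of TN, A530065N20Rik had 1362 CPM in 1cyc and 1175 CPM in TN; in nuclei below that it had 1164 CPM in 1cyc and 846 CPM in TN. 4930556N13Rik had a ratio of 1.31 (0.997 to 1.73) in the nuclei at or above 2 UMIs per 500 and 2.44 (1.80 to 3.32) below.

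**Figure D4:**
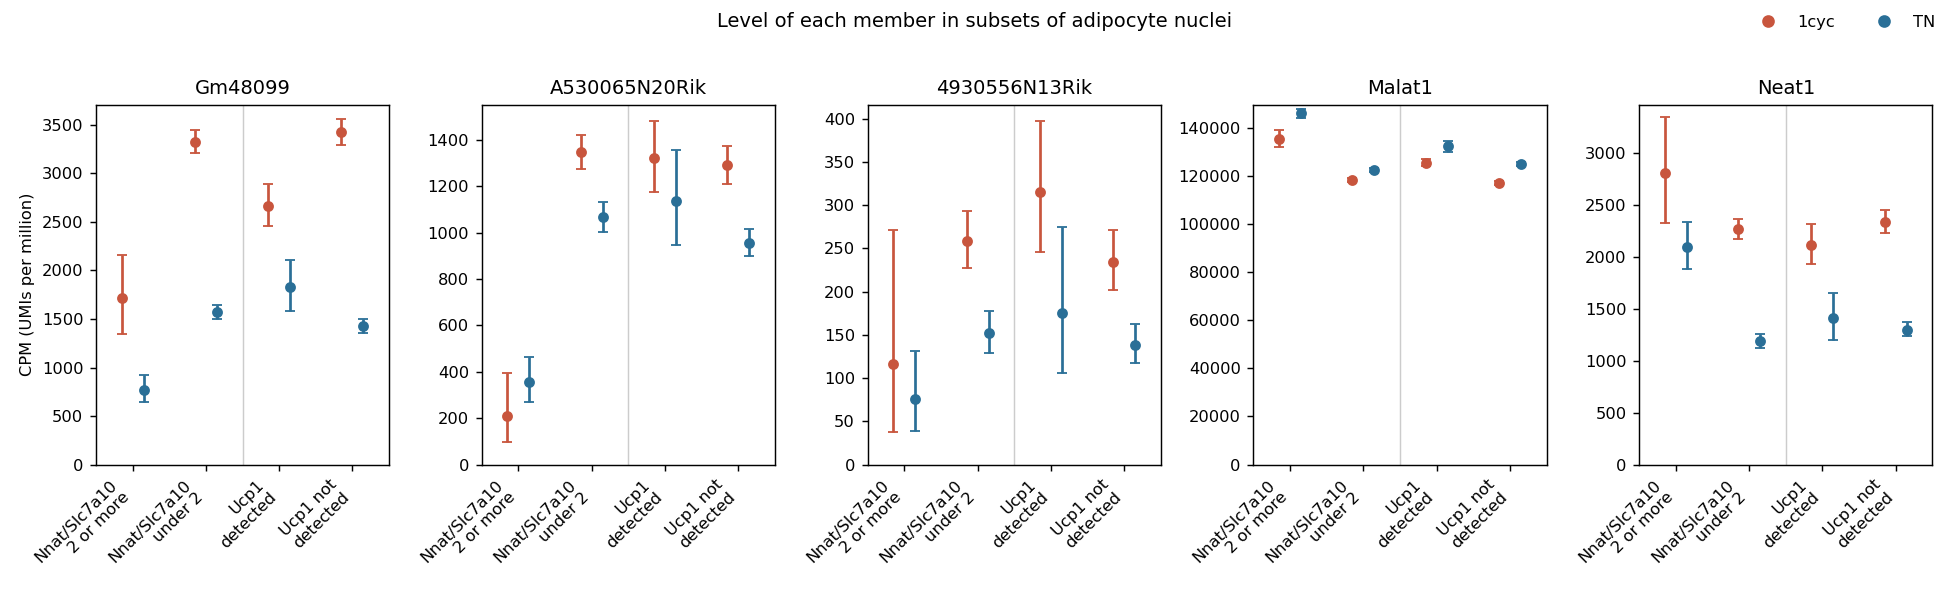
CPM of each member in adipocyte nuclei with at least 2 or under 2 UMIs of Nnat or Slc7a10 and with or without a Ucp1 UMI, 1cyc left of TN, with 95% Poisson intervals. A530065N20Rik is at 209 CPM in 1cyc and 358 CPM in TN in the Nnat or Slc7a10 nuclei, below the 1348 CPM in 1cyc and 1066 CPM in TN of the rest.

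The members hardly varied together across nuclei. At 500 thinned UMIs, Spearman rho between pairs among the 4 members other than Malat1 was at most 0.127 in 1cyc (Gm48099 with Neat1, n = 787) and 0.0893 in TN (Gm48099 with A530065N20Rik, n = 1081), values too weak in sparse counts to be a finding. Malat1 had a rho of -0.259 in 1cyc and -0.176 in TN with Gm48099, of -0.195 and -0.0117 with Neat1, of -0.151 and -0.0651 with A530065N20Rik and of -0.0741 and -0.0176 with 4930556N13Rik.

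RNA of mt- genes is made in mitochondria, outside the nucleus, and its share of a barcode went along with some members. Within adipocyte nuclei the Malat1 share was lower at a higher mt- share (rho -0.348 in 1cyc and -0.223 in TN), and the Gm48099 share was higher (0.249 in 1cyc and 0.162 in TN). Nuclei under 1% mt- had a median depth of 1501 UMIs in 1cyc and 1642.5 UMIs in TN, against 752.5 and 808 UMIs at 2 to 5%. Under 1%, at 1 to 2% and at 2 to 5%, Gm48099 averaged 3.32, 3.61 and 3.55 UMIs per nucleus in 1cyc. In TN it averaged 1.34, 1.63 and 1.63 UMIs. The part of depth in these rho values was not tested. Barcodes that met the 4-UMI adipocyte rule at any mt- share were then set in bands. There were 912, 583 and 1054 in 1cyc and 1081, 783 and 33 in TN, under 5%, at 5 to 20% and at 20% mt- and over. Median depths in the 2 higher bands were 381 and 378.5 UMIs in 1cyc and 695 and 801 UMIs in TN. The CPM that follow are per 1000000 UMIs that are not mt-.

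Gm48099 had 3320, 8812 and 4397 CPM from the lowest to the highest band in 1cyc and 1502, 2673 and 8597 CPM in TN. Its CPM thus peaked in the middle band in 1cyc and in the highest band in TN, where 33 barcodes held 307 UMIs. Per barcode, Gm48099 averaged 3.53, 3.53 and 1.34 UMIs in 1cyc and 1.62, 1.95 and 9.30 UMIs in TN. In 1cyc the median depth was 966.5 UMIs under 5% mt- and 381 UMIs at 5 to 20%, and the part of depth was not tested. The library ratio, on these UMIs, was 2.21 (2.08 to 2.34), 3.30 (3.08 to 3.52) and 0.511 (0.452 to 0.581). With all barcodes of 500 UMIs and over, whatever their class, it was 2.21 (2.10 to 2.34), 2.41 (2.24 to 2.60) and 0.487 (0.436 to 0.544). Neat1 kept a similar order of the libraries in each band, with 2336, 2790 and 2219 CPM in 1cyc and 1346, 1435 and 1036 CPM in TN. Its ratios were 1.74 (1.63 to 1.85), 1.94 (1.75 to 2.16) and 2.14 (1.54 to 3.07).

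Malat1 had 121448, 120138 and 144462 CPM in 1cyc and 129001, 117600 and 91849 CPM in TN. The library ratio was 0.941 (0.934 to 0.949), 1.02 (1.01 to 1.04) and 1.57 (1.52 to 1.63), so in these barcodes Malat1 was lower in 1cyc under 5% mt- alone. That order did not hold in other choices of barcodes: with all barcodes of 500 UMIs and over, whatever their class, the ratio was 1.04 (1.03 to 1.04) under 5%, 0.924 (0.908 to 0.939) at 5 to 20% and 1.67 (1.62 to 1.72) at 20% and over. Over all UMIs, mt- included, the adipocyte-rule ratio at 5 to 20% was 0.997 (0.983 to 1.01). Among adipocyte nuclei under 1% mt-, Malat1 stood at 1.23, and at 0.904 (0.887 to 0.922) without the haemoglobin-rich nuclei, 1 of 1cyc and 4 of TN. A530065N20Rik had 1324, 1320 and 893 CPM in 1cyc and 997, 1217 and 560 CPM in TN, with ratios of 1.33 (1.23 to 1.44), 1.08 (0.945 to 1.24) and 1.59 (1.01 to 2.65). 4930556N13Rik had 258, 141 and 184 CPM in 1cyc and 145, 124 and 56.0 CPM in TN; the last rests on 2 UMIs, and only its ratio under 5% mt- had an interval above 1.

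**Figure D5:**
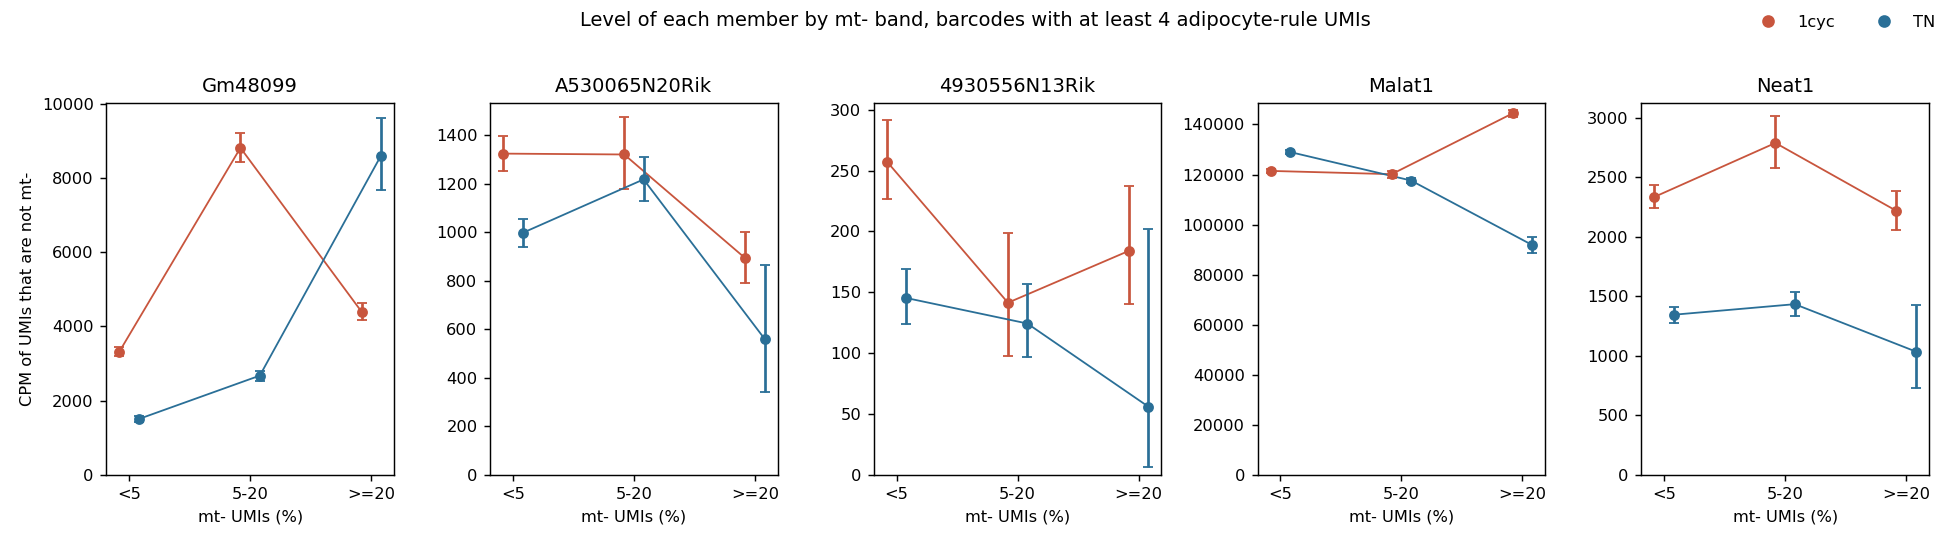
CPM of UMIs that are not mt- for each member in barcodes of the adipocyte rule by mt- band, 1cyc and TN, with 95% Poisson intervals. The Gm48099 lines cross, at 8812 CPM in 1cyc and 2673 CPM in TN at 5 to 20% but 4397 CPM in 1cyc and 8597 CPM in TN at 20% and over, while Neat1 is higher in 1cyc in each band.

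Genes with the most similar pattern were sought over 8 points, the 3 mt- bands of adipocyte-rule barcodes and the fibroblast or progenitor nuclei in each library, as Pearson r of log2(CPM + 10) among 6237 genes, with CPM here per 1000000 UMIs of all genes. For Gm48099 this was Kpna1, an importin alpha that carries proteins into the nucleus, at 0.988, well ahead of Chl1 at 0.888 and Gm19951 at 0.884. Kpna1 had 563, 1166 and 469 CPM over the bands in 1cyc and 298, 426 and 986 CPM in TN, with 412 CPM in 1cyc and 228 CPM in TN in fibroblast or progenitor nuclei, and so crossed between the libraries in the same bands as Gm48099.

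The other members had several close genes. A530065N20Rik was nearest to Ogdh, of the oxoglutarate dehydrogenase complex, at 0.996, Pck1, the phosphoenolpyruvate carboxykinase used to make glycerol in fat cells, at 0.994, and the lysosomal protease gene Ctsb at 0.994. 4930556N13Rik was nearest to Crem, a cyclic AMP-responsive transcription factor gene, at 0.991, followed by Tstd2 and by Lncbate1, a noncoding RNA known from mouse brown fat, at 0.988 each. Neat1 was nearest to Ahcyl1 at 0.979, the hexokinase gene Hk2 at 0.979 and the glycogen synthase gene Gys2 at 0.978. Malat1 was nearest to Wdr26 at 0.994 and to Fndc3b and Ispd at 0.988 each. Over the same points the 13 mt- genes had a median r of -0.815 with Malat1 and 0.582 with Gm48099; mt- UMIs are part of the denominator here, which lowers other genes' CPM at a high mt- share. Some points lie at or near 0, so a high r rests partly on such values. 4930556N13Rik had 1 UMI in 1cyc and 0 in TN fibroblast or progenitor nuclei, and 2 UMIs in TN at 20% mt- and over. Fndc3b, Ispd and Gys2 were at 0 CPM in TN at 20% mt- and over. In fibroblast or progenitor nuclei Gys2 was at 0 CPM in 1cyc and TN, and Lncbate1 at 0 CPM in TN. The points share their libraries, and the values are descriptions.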

How the data were processed

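Nuclei sorted as DAPI-positive were profiled on the 10X droplet platform, per the labels' protocols. The deposited values are raw UMI counts per gene and barcode on mm10; the submitters' processing notes name Cell Ranger 3, and the file headers give version 3.1.0. Strand setting, intron counting and annotation: not given in the sources used here. Annotation came from GENCODE M21, which held 30934 of 31053 gene identifiers (99.6%), and 3 of 5 members matched a RefSeq promoter.

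Counts were summed over the nuclei of a class and scaled to CPM. CPM have exact Poisson, shares exact Clopper-Pearson and ratios exact conditional binomial 95% intervals; these cover counting error only, not the spread between mice or preparations. A count of 0 was set against a floor of 3 counts. The ratio step was tested on simulated data. Only genes reaching 100 UMIs in the 2 sums together were compared, with no test and no p-value. Scrublet (scanpy 1.11.5) called 6 barcodes in 1cyc and 10 in TN, 0 and 7 of them adipocyte nuclei, too few to rely on, so doublets were kept and stay unresolved. TMM factors came from edgeR 4.0.16, used for scaling alone.

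The members, the adipocyte rule and all gene lists were chosen with earlier results of these data known. Besides the members, the genes named were those overlapping or next to them, the 3 of most similar pattern for each, and the 3 per list farthest from a ratio of 1; Airn, Srsf5 and the marker genes were named in addition, and a few genes under this rule are not reported here. The alternatives changed the adipocyte rule, mt- limit, depth, denominator, scaling, weighting, doublets, class minimum and gene filter. Leaving out haemoglobin-rich nuclei was chosen after seeing the data.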

Additional observations from a re-analysis of the deposited data

Results flagged for a closer look

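In barcodes of the adipocyte rule at 20% mt- and over, the CPM ratio of 1cyc over TN for Gm48099 was 0.521 (0.460 to 0.591), against 2.22 under 5% mt-. For Malat1 it was 1.60 (1.55 to 1.66) there, against 0.947 under 5% mt-. Both were noted because the libraries stood in opposite order in the 2 bands; the difference between bands was not tested. The highest band held 1054 barcodes in 1cyc with a median of 378.5 UMIs and 33 in TN with a median of 801 UMIs, and the part of this imbalance was not tested. Without haemoglobin-rich barcodes the ratios in the highest band were 0.521 for Gm48099 and 1.60 for Malat1.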

How the results depend on the processing

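Across 17 other settings the CPM ratio of 1cyc over TN in adipocyte nuclei kept its direction for the members other than Malat1, at 2.04 to 2.54 for Gm48099, 1.09 to 1.56 for A530065N20Rik, 1.45 to 2.24 for 4930556N13Rik and 1.50 to 1.94 for Neat1. Malat1 ran from 0.845 to 1.03.

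Values outside the counting interval were as follows. With the adipocyte rule at 3, 6 and 8 UMIs Malat1 stood at 0.967, 0.935 and 0.926; at 8 UMIs Gm48099 was 2.05, A530065N20Rik 1.19 and Neat1 1.58. With a 2% mt- limit Gm48099 was 2.54, A530065N20Rik 1.56, Malat1 0.979 and Neat1 1.50; with 10% Malat1 was 0.955; with no limit Gm48099 was 2.04, A530065N20Rik 1.09 and Neat1 1.63. With at least 500 UMIs per barcode Gm48099 was 2.04 and Malat1 0.968. With at least 1000 UMIs 4930556N13Rik was 2.24, Neat1 1.51 and Malat1 turned round to 1.03, but was 0.969 once the haemoglobin-rich nuclei were also left out. Median-ratio scaling gave 2.09 for Gm48099 and 0.891 for Malat1, and TMM 2.07, 0.883 and, for Neat1, 1.63. Equal weights gave 2.40 for Gm48099, 0.845 for Malat1 and 1.94 for Neat1. Thinning gave 2.09, 1.45 and 0.888 for Gm48099, 4930556N13Rik and Malat1. Malat1 was 0.938 without nuclei holding other markers and 0.914 without haemoglobin-rich nuclei.

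The share of nuclei with a UMI fell with thinning. In 1cyc and TN it was 72.4% and 51.4% for Gm48099, 46.9% and 39.4% for A530065N20Rik, 11.1% and 8.05% for 4930556N13Rik and 63.2% and 47.1% for Neat1. At 2% mt- it was 70.9% for Gm48099 in TN, 69.9% for A530065N20Rik in 1cyc, 25.3% in 1cyc and 17.6% in TN for 4930556N13Rik and 75.8% for Neat1 in TN; at 10% it was 62.1% for A530065N20Rik in 1cyc. With 5 UMIs of a class list Malat1 stood at 0.810 in 1cyc and 0.873 in TN, adipocyte nuclei over other classes.

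For all barcodes at 20% mt- and over against under 5%, leaving mt- UMIs out turned Malat1 to 1.20 and Neat1 to 1.08 in 1cyc. It gave Gm48099 1.38 in 1cyc and 6.68 in TN, A530065N20Rik 0.737 and 0.556, and 4930556N13Rik 0.810 in 1cyc, with Malat1 at 0.763 and Neat1 at 0.733 in TN. Adipocyte-rule barcodes gave Neat1 0.667 in 1cyc and Gm48099 3.97 and Malat1 0.495 in TN. Barcodes of at least 500 UMIs gave Gm48099 1.02 and Malat1 0.853 in 1cyc. The causes were not tested, save that an mt- denominator lowers CPM by construction.

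Of all genes, 56 were at least 2-fold higher and 78 lower; with a 50-UMI filter 138 and 218, with at least 1 UMI in each library 1809 and 1330, with TMM 32 and 90, and without haemoglobin-rich nuclei 38 and 80. A count with no filter at all was not run. No paired analysis was possible because each condition is 1 pooled library, which also leaves no replicate to leave out. Depth limits 4930556N13Rik most, with 250 UMIs in 1cyc and 169 in TN.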
